A study of Xenopus laevis with 8 samples.

Results

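Transcription factor genes of the heart and the lateral plate mesoderm, 10 in number, were followed in foregut endoderm of the frog Xenopus laevis. They are nkx2-5, nkx2-3, tbx2, tbx5, tbx20, hand1, hand2, isl1, mef2a and mef2c. Their probe sets were found by name in the annotated array table. The search gave 15 probe sets for 8 of the 10 genes, out of 15491 probe sets tested. The names isl1 and mef2c matched no probe set, and these genes are not analysed here. The study asked which genes of the foregut endoderm respond to the mesoderm beside it. Foregut was explanted at stage 15 and cultured to stage 23 in 2 conditions. In the first, the explant stayed intact, and its endoderm was separated from the mesoderm at stage 23 (called with mesoderm). In the second, the endoderm was freed of mesoderm before culture (called alone). The labels name no genotype and no treatment beyond these conditions. There were 4 samples of each condition, 1 Affymetrix array per sample, in sets numbered 1 to 4 that hold 1 array of each condition. Isolation at stage 15 or at stage 23 goes with the condition, and these cannot be told apart.

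These factors work as a network in heart precursors. The NK2 homeobox proteins Nkx2-5 and Nkx2-3, the T-box proteins, the basic helix-loop-helix proteins Hand1 and Hand2 and the MADS-box proteins of the Mef2 family bind near shared target genes, among them those of the contractile apparatus. Precursors of the heart lie in the anterior lateral plate, next to the foregut endoderm. Some of the factors are not exclusive to mesoderm: in Xenopus, nkx2-5 and nkx2-3 are also known from the pharyngeal endoderm. A signal of these genes in isolated endoderm can therefore come from endoderm or from mesoderm cells carried over in the dissection. In RNA of whole tissue pieces, fewer cells of a type and less RNA per cell cannot be told apart.

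The values are intensities made by the authors with RMA, a method that corrects for background, normalizes the arrays and summarises the probes of a probe set. Array medians ran from 128.5 to 132.2 on the linear scale. The 44 negative control probe sets, of bacterial genes and artificial tags that frog tissue does not hold, set the background. A probe set was taken as above background on an array where it exceeded their 95th percentile, which ran from 47.7 to 79.5 over the 8 arrays. In set 4 the negative controls themselves differed between the arrays: the median of their log2 differences, with mesoderm minus alone, was 0.36, against -0.08, 0.07 and -0.13 in sets 1 to 3. Set 4 also had the widest differences over all probe sets, with an SD of 0.528 (log2), beside 0.25 to 0.331 in the others. The differences in set 4 are therefore given apart from those in the others below. Of the endoderm markers darmin stood at a mean log2 level of 13.31 in both conditions, and foxa1, a forkhead factor of endoderm, at 11.67 alone and 11.66 with mesoderm. The endoderm markers cldn6 and sox17a were lower with mesoderm in all 4 sets, with mean log2 differences of -0.75 and -0.53. The related gene sox17b was not: it differed by 0.52, 0.10, 0.50 and -1.06 in sets 1 to 4, a mean of 0.02. The endoderm marker hhex was above background on 0 of 8 arrays.

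Of the 15 probe sets, 5 were above background on all 8 arrays: both of nkx2-3 and those of tbx2 and hand1, and the first of hand2. Both probe sets of nkx2-5 were above it on 7 of 8 arrays and the second of hand2 on 3. The other 7, all 4 of tbx5, that of tbx20 and both of mef2a, exceeded it on 0 arrays. Nkx2-3, tbx2 and the first hand2 probe set were thus measured on all 8 arrays, nkx2-5 on all but that of set 4 alone, hand1 and the second hand2 probe set lay near background, and tbx5, tbx20 and mef2a at background.

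Within sets, none of the 15 probe sets was called higher or lower with mesoderm. The test was limma with the set number as a block, with Benjamini-Hochberg adjustment over all 15491 probe sets and a call at an adjusted p under 0.05. It called 0.258% of all probe sets higher and 0.129% lower, and a count of 0 among 15 is near that background. The fit that leaves out the set number called 0% higher and 0% lower. With p unadjusted and under 0.05, that limma fit held 203 probe sets higher and 181 lower, 0 of them members. The lowest adjusted p of a member was that of tbx2, 0.233. At an unadjusted p under 0.05 limma had 1 of the 15 higher, again tbx2, and 0 lower, beside 3.93% of all probe sets higher and 5.42% lower, again near the background. In no member did the 4 arrays of a condition all lie above or all below the 4 of the other, which held for 1.03% of all probe sets higher and 0.859% lower. The median log2 difference of the 15 was 0.14 (with mesoderm minus alone, here and below), beside 0.01 for all probe sets and 0.05 for the 3797 that were above background on no array. Without set 4 it was -0.04.

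**Figure D1:**
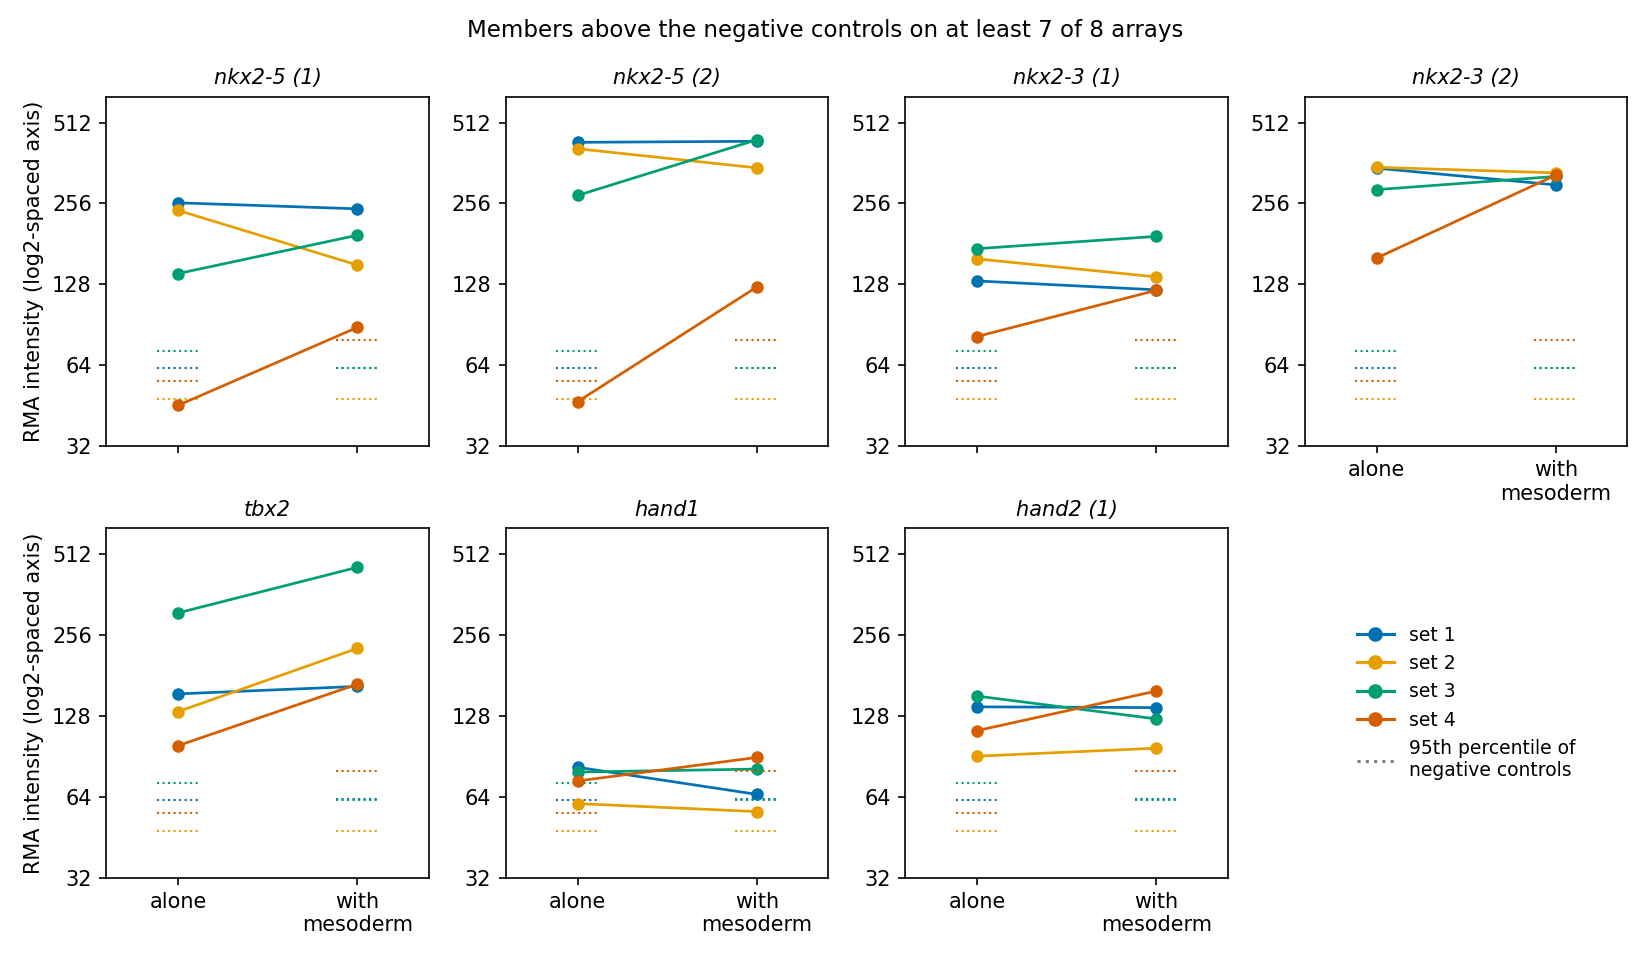
RMA intensity on a log2-spaced axis, for the 7 member probe sets above the negative controls on at least 7 of 8 arrays; a line joins the 2 arrays of a set, and a dotted dash is the 95th percentile of that array's negative controls. Both nkx2-5 probe sets fall below that mark in set 4 alone (45.3 and 46.7 beside 55.6), while tbx2 is higher with mesoderm in all 4 sets.

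The homeobox gene nkx2-5, among the first genes to mark heart precursors, varied more between sets than between conditions. The first of its 2 probe sets (in the order of the deposited table, as below) read 257.2, 241.1, 140.2 and 45.3 alone and 244.3, 150.9, 194.7 and 88.3 with mesoderm in sets 1 to 4. The second read 432.0, 409.0, 274.0 and 46.7 alone and 435.9, 347.1, 441.6 and 125.0 with mesoderm. Both were lowest in set 4, in each condition, and at background in set 4 alone. With that array taken at its background mark, the highest array was 7.94-fold above it for the second probe set and 4.62-fold for the first. These folds do not correct for background that differs between arrays and are not lower bounds. Differences between sets held 86.7% and 84.7% of their sum of squares over the 8 arrays, and differences between conditions 4.66% and 1.12%. Over all probe sets the median share between sets was 73.6%, so a large share is common on these arrays.

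Within sets 1 to 4 the log2 difference of the second nkx2-5 probe set was 0.01, -0.24, 0.69 and 1.42, a mean of 0.47 ± 0.74 (SD of the 4 differences, as after each ± of a difference below). Its adjusted p in limma was 0.647, and the 95% interval of the difference ran from -0.10 to 1.04. Here and below, limma draws the variance toward that of all probe sets, so the interval does not follow from the SD alone. The first probe set differed by -0.07, -0.68, 0.47 and 0.96, with a mean of 0.17 ± 0.71 and an adjusted p of 0.886. In both, sets 3 and 4 lay on the higher side and set 2 on the lower, and the groups overlapped. In set 4 the value alone was not above background, and the means above hold that value. With it set to its background mark of 55.6, the second probe set was 2.25-fold higher with mesoderm and the first 1.59-fold. The array with mesoderm had a higher mark, 79.5, beside readings of 125.0 and 88.3. These folds do not correct for that and are not lower bounds. Without set 4 the means were 0.15 and -0.09.

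The related homeobox gene nkx2-3 was above background on every array. Its first probe set read 131.6, 159.1, 173.6 and 81.7 alone and 122.0, 136.2, 192.9 and 121.4 with mesoderm. Its second read 346.2, 348.7, 288.0 and 160.2 alone and 299.9, 332.5, 322.5 and 326.3 with mesoderm. Again the array of set 4 alone was the lowest of the 8 for both, while the 4 arrays with mesoderm of the second probe set lay close together (mean log2 level 8.32 ± 0.07, SD over 4 arrays, against 8.09 ± 0.53 alone).

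The log2 differences of the second nkx2-3 probe set were -0.21, -0.07, 0.16 and 1.03, with a mean of 0.23 ± 0.55, an adjusted p of 0.803 in limma and a 95% interval from -0.23 to 0.69. Those of the first were -0.11, -0.22, 0.15 and 0.57, with a mean of 0.10 ± 0.35 and an adjusted p of 0.897. Sets 1 and 2 lay below 0 and sets 3 and 4 above 0 in both. Without set 4 the means turned to -0.04 and -0.06. The difference in set 4 was 0.66 and 0.21 above the median difference of the negative controls.

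The T-box gene tbx2, a repressor that in the mouse keeps chamber genes off in parts of the developing heart, read higher with mesoderm in 4 of 4 sets. Its probe set read 154.6, 132.8, 309.6 and 99.2 alone and 164.9, 228.4, 457.7 and 167.9 with mesoderm. Set 3 was the highest in both conditions, so that the groups overlapped. The log2 differences in sets 1 to 4 were 0.09, 0.78, 0.56 and 0.76, a mean of 0.55 ± 0.32 or 1.46-fold. The 95% interval, from 0.22 to 0.88, lay above 0, but the adjusted p in limma was 0.233, which placed it at rank 322 by p, and the gene was not called. Over the alternatives its adjusted p ran from 0.122 (without set 4) to 1.00 (without the block). With a probe set of mef2a, 2 of the 15 were higher in all 4 sets, beside 8.35% of all probe sets, and 0 of 15 lower in all 4, beside 10.3%.

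The other T-box genes, tbx5 and tbx20, encode factors needed for heart development. The 4 probe sets of tbx5 read from 13.2 to 70.8 over all arrays, and on each array lay under the 95th percentile of the negative controls. Their mean log2 differences were -0.13, 0.15, -0.10 and -0.02, with adjusted p from 0.853 to 0.978 in limma. The probe set listed as tbx5-B read 47.5, 32.3, 55.8 and 42.5 alone and 42.9, 36.5, 50.1 and 70.8 with mesoderm. Over the 8 arrays it moved with the median of the negative controls (Pearson r 0.90, a description over arrays that share sets). The array of set 4 with mesoderm was its highest and also the array with the highest negative controls. That probe set was 0.74 higher in set 4 and 0.18 in set 2, and -0.15 in both of the other sets. The probe set of tbx20 read 42.3, 32.4, 42.9 and 35.6 alone and 42.2, 29.8, 48.4 and 60.9 with mesoderm. Its differences were 0.00, -0.12, 0.17 and 0.77, a mean of 0.21 ± 0.40 (adjusted p 0.773), and 0.02 without set 4. At these levels a difference in tbx5 or tbx20 was not detectable.

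Hand1 and hand2 encode basic helix-loop-helix factors of the lateral plate and the heart. The hand1 probe set read 82.4, 60.4, 79.1 and 73.3 alone and 65.3, 56.4, 81.2 and 89.7 with mesoderm. It passed the 95th percentile of the negative controls on all 8 arrays but their highest value on 0. It differed by -0.33, -0.10, 0.04 and 0.29, a mean of -0.03 ± 0.26, with a 95% interval from -0.33 to 0.28 and an adjusted p of 0.974 in limma. The first hand2 probe set read 138.4, 90.7, 151.7 and 112.8 alone and 137.5, 97.1, 124.8 and 158.5 with mesoderm, above the highest negative control on all 8 arrays. It differed by -0.01, 0.10, -0.28 and 0.49, a mean of 0.07 ± 0.32, with an interval from -0.26 to 0.40 and an adjusted p of 0.920. The second hand2 probe set differed by 0.13 ± 0.28 (adjusted p 0.840), and the pair had an r of 0.95 over the 8 arrays. Hand2 and hand1 also moved with the median of the negative controls. Pearson r was 0.84 and 0.86 for the hand2 pair and 0.72 for hand1, a description over the 8 arrays. For the probe sets of nkx2-5, nkx2-3 and tbx2 it ran from -0.04 to 0.35. For hand1 and hand2 the arrays of the conditions overlapped, and only set 4 differed by 0.29 or more in the higher direction. Neither difference exceeded the spread between sets.

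Mef2a is a MADS-box activator of muscle genes that is also found outside muscle. Its probe sets lay at background, from 40.1 to 75.9 for the first and from 24.2 to 37.3 for the second. The second read higher with mesoderm in all 4 sets, by 0.04, 0.22, 0.06 and 0.59, a mean of 0.22 ± 0.26 (adjusted p 0.692). The first differed by 0.14 ± 0.26 (adjusted p 0.833). Neither passed the test.

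**Figure D2:**
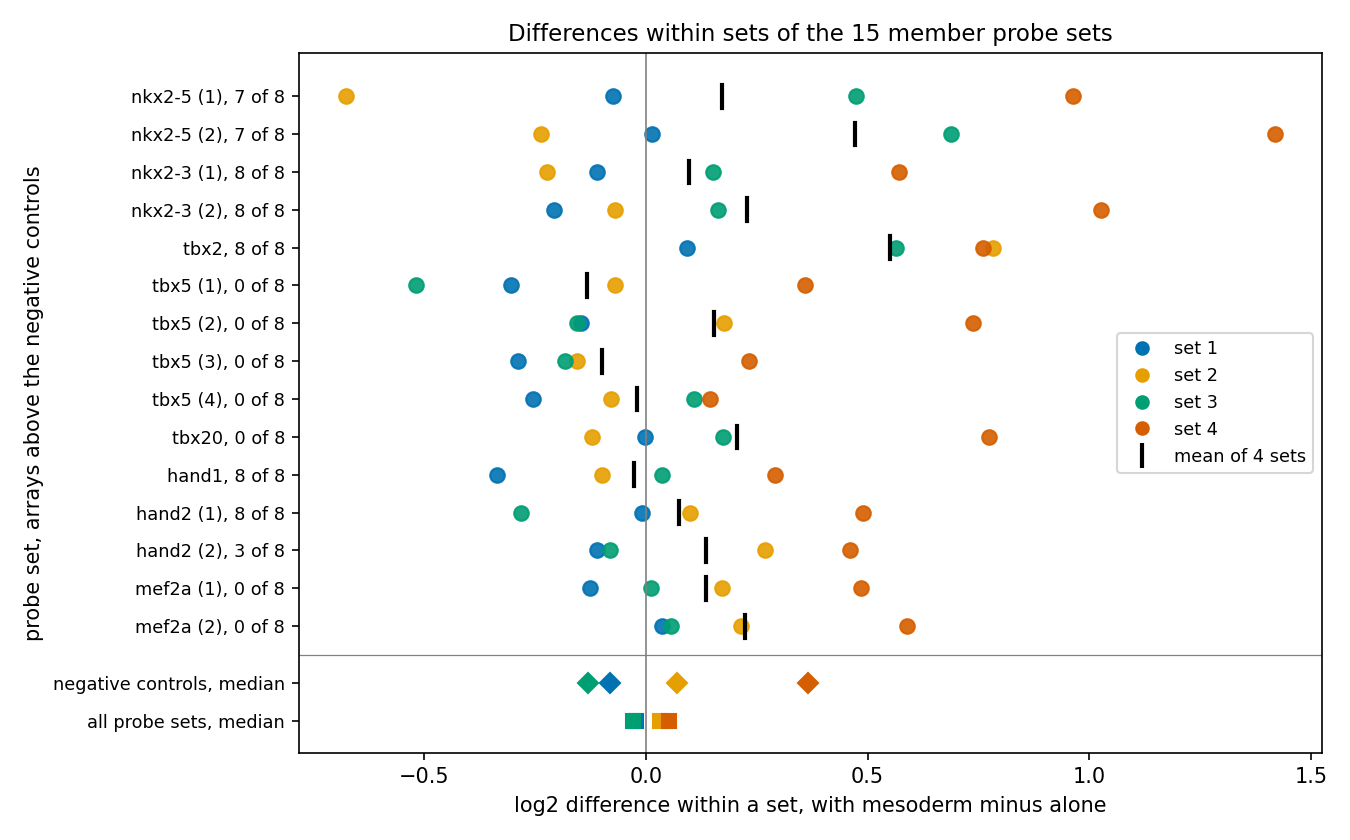
Log2 difference between the 2 arrays of each set, with mesoderm minus alone, for the 15 member probe sets, numbered within a gene in the order of the deposited table, with the count of arrays above background. All 15 lie above 0 in set 4, where the median difference of the negative controls is 0.36, and 3, 6 and 10 of 15 do in sets 1 to 3.

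Set 4 stood apart for the whole group. There all 15 probe sets were higher with mesoderm, beside 54.3% of all probe sets. The share was 84.2% of those above background on no array and 42.4% of those above it on all 8. In sets 1, 2 and 3 the members higher were 3, 6 and 10 of the 15, beside 45.4%, 55.7% and 45.1% of all. The median of the 15 in sets 1 to 4 was -0.11, -0.07, 0.06 and 0.57. Of the 44 negative controls 40 were higher with mesoderm in set 4, and 13, 35 and 8 in sets 1 to 3. Brighter probe sets did not share that shift of 0.36 at the median. In set 4 those above background on all 8 arrays had a median difference of -0.09, beside 0.05 for all probe sets. With 0.36 taken off, 11 of the 15 differences in set 4 were above 0 and 4 below 0. The latter were hand1 (-0.07) and the 3 tbx5-A probe sets (-0.01, -0.13 and -0.22). With each array centred on the median of its negative controls, the mean difference of tbx2 was 0.50 and that of the second nkx2-5 probe set 0.42, and neither was called (adjusted p 0.999 for both).

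Probe sets of a gene were compared over the 8 arrays, as a description over arrays that share sets and normalization. The nkx2-5 pair had an r of 0.97 and the nkx2-3 pair 0.72. The second nkx2-5 and the second nkx2-3 probe set had 0.84, and the first nkx2-3 probe set and tbx2 0.81. Among the 3745 probe sets with a gene name, the most alike to tbx2 was tbx3-A (r 0.95), and then mosxe (0.94). A top r picked from so many over 8 arrays tends to be high, and none was tested. Tbx3 is a close relative of tbx2 with 2 probe sets found by name on the array. Among those alike to the first nkx2-3 probe set was XFGFRA2 (0.96), and to the second cry1-A (0.94). Hand1 was most like camk2g and a tbx5-A probe set (0.97 each), both at background. The first hand2 probe set was most like neurod1-A and p2X7 (0.99 each), of which p2X7 was at background.

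A list of other regulators of heart and lateral plate had a probe set for 20 of its 37 genes (the brightest for each gene, as in the lists below). None was called in either direction. With p unadjusted and under 0.05 there were 3 higher and 0 lower, beside 3.93% and 5.42% of all probe sets. The 3 were hey1, foxc2 and twist1, of which foxc2 was above background on 2 arrays and twist1 on 0. The median difference of the list was 0.07. Its 3 brightest were tbx3 at 0.08 ± 0.22 (another probe set than the one most like tbx2), hey1, a target of Notch signalling, at 0.90 ± 0.80 (adjusted p 0.286), and gata4, a zinc finger factor of both heart and endoderm, at -0.05 ± 0.73 (adjusted p 0.974). The lateral plate gene foxf1 was above background on 0 arrays. A list of contractile and secreted heart muscle proteins had 7 of 22 genes, with 0 called and 0 with an unadjusted p under 0.05 either way. The atrial myosin light chain gene myl7, the troponin gene tnnc1 and the natriuretic peptide gene nppa were each above background on 0 of 8 arrays. Above it on all 8 were atp2a2, the calcium pump of the sarcoplasmic and endoplasmic reticulum, at 0.27 ± 0.39 (adjusted p 0.689), and a probe set listed under both BOC and TTN at -0.08 ± 0.19.

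A list of signals that induce heart and lateral plate had 14 of 18 genes. Of these 1 was called higher and 0 lower, beside 0.258% and 0.129% of all probe sets. With p unadjusted and under 0.05, 1 was higher and 1 lower, beside 3.93% and 5.42% of all probe sets. The gene called was szl, a secreted inhibitor of tolloid proteases, with an adjusted p of 0.0187 in limma. Without the block szl was not called (adjusted p 0.964 in limma). It was above background on 0 of 4 arrays alone and on 3 of 4 with mesoderm (measured mean log2 levels 4.30 and 6.69). With the values alone set to their background marks, it was 1.75-fold higher with mesoderm. That mean holds the value of set 4 with mesoderm, which was itself at background. In set 4 the fold against the mark was 0.68, so no rise was bounded there. The 3 brightest of the list, bmp7, sfrp2 and wnt11, differed by 0.11 ± 0.38, -0.10 ± 0.44 and -0.27 ± 0.74, with adjusted p from 0.823 to 0.908. Medians of the 3 lists without set 4 were 0.02, -0.06 and 0.01.

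**Figure D3:**
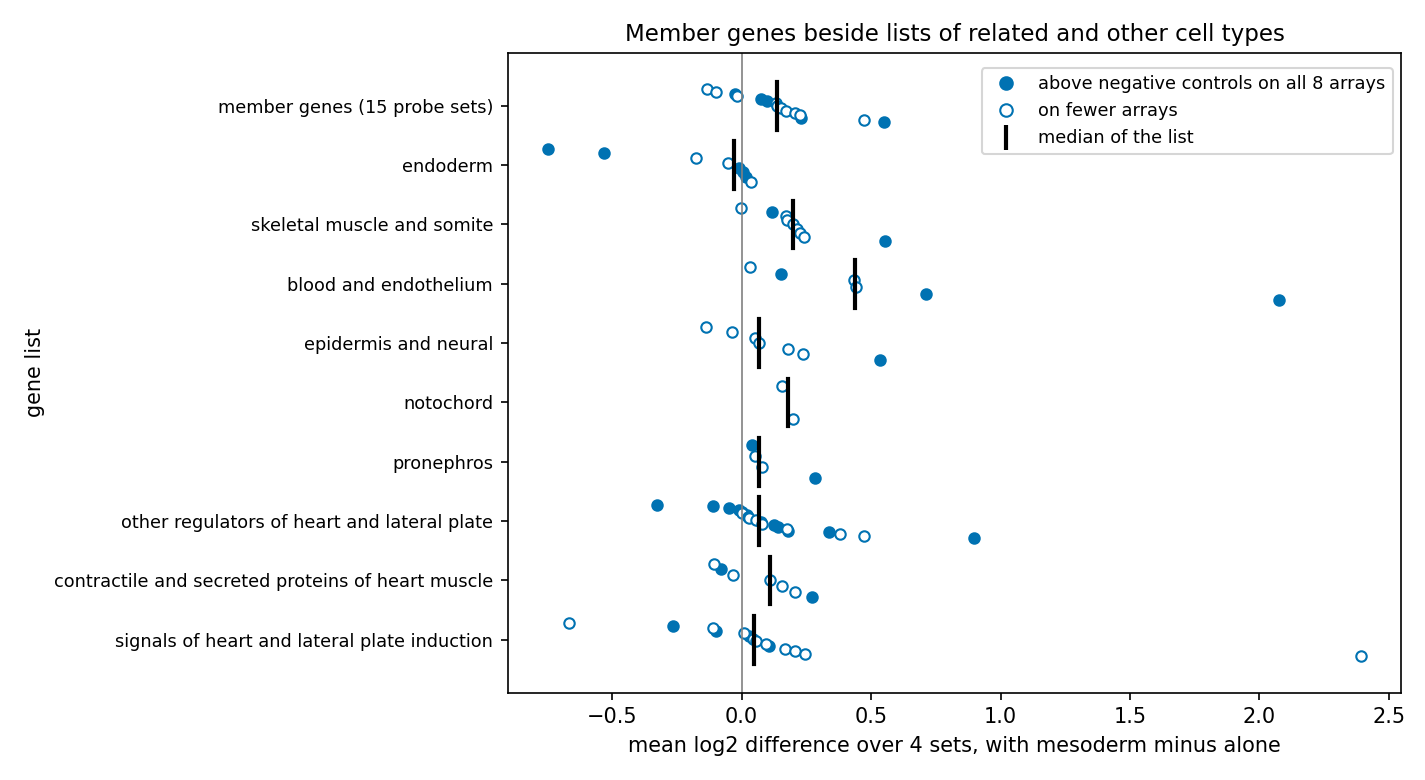
Mean log2 difference over the 4 sets for each gene (its brightest probe set) of each list, with the 15 member probe sets on top; filled points were above the negative controls on all 8 arrays, and a bar is the median. Member probe sets range from -0.13 to 0.55, and the blood and endothelium list has the highest median, 0.44.

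Markers of other tissues were read as a check on cells carried over. The skeletal muscle and somite list had 9 of 20 genes, 6 of them above background on 0 arrays, among them mylpf, tnnc2 and myh4. Its summed intensity ran from 593.4 to 925.8 alone and from 659.4 to 1049.7 with mesoderm, and was higher with mesoderm in 4 of 4 sets. Above background on all 8 arrays were ckm, the muscle creatine kinase, at 0.56 ± 0.56 (adjusted p 0.415), and des, the muscle intermediate filament gene, at 0.12 ± 0.45. Ckm, the brightest of the list, was higher with mesoderm in sets 1 to 3 but lower in set 4 (-0.13). The higher sum in set 4 thus came from dimmer genes of the list, among them des (0.66 in set 4). The median difference of the list in set 4 was 0.54, beside 0.36 for the negative controls. The cause was not tested. The blood and endothelium list had 6 of 17 genes, 3 of them above background on all 8 arrays. All 6 had a mean difference above 0, beside 51.6% of all probe sets. The summed intensity ran from 993.7 to 1404.2 alone and from 1647.6 to 3583.3 with mesoderm, without overlap. Of all single probe sets, 1.03% were higher with mesoderm without overlap. Such a sum gives most weight to the brightest gene, here mpo (mean log2 level 8.55 alone and 10.62 with mesoderm). The other genes differed less. Mpo itself differed by 1.89, 2.37 and 3.87 in sets 1 to 3 but by 0.18 in set 4. The 3 brightest of this list were mpo, the myeloperoxidase of myeloid cells, at 2.08 ± 1.52 (adjusted p 0.174), gata2 at 0.15 ± 0.37 and lmo2, a cofactor of blood cell factors, at 0.71 ± 0.36 (adjusted p 0.139). Of the notochord list 2 of 6 genes had a probe set, 0 of them above background on all 8 arrays, with a sum from 71.2 to 113.8 alone and from 87.7 to 127.4 with mesoderm. The pronephros list had 4 of 7 genes, of which osr1 (0.04 ± 0.26) was among those above it on all 8, and its sum ran from 838.8 to 1163.3 alone and from 904.3 to 1246.3 with mesoderm. The epidermis and neural list had 7 of 14, 1 of them above it on all 8, and its sum ran from 339.4 to 890.1 alone and from 590.4 to 815.1 with mesoderm. In the endoderm list, of 8 of 14 genes, cldn6, a tight junction gene, differed by -0.75 ± 0.36 (adjusted p 0.128). Sox17a differed by -0.53 ± 0.65 (adjusted p 0.510). These 2 were lower with mesoderm in 4 of 4 sets, beside 10.3% of all probe sets, and 0 of the 8 were higher in all 4. The sum of the endoderm list gives most weight to its brightest gene, darmin, and says little of the dimmer ones. That sum ran from 14871.4 to 17524.4 alone and from 14245.5 to 16670.9 with mesoderm. Its highest value alone and its lowest with mesoderm were both those of set 4. Limma called 0 genes of these 6 lists in either direction. With p unadjusted and under 0.05 there were 4 higher and 2 lower, beside 3.93% and 5.42% of all probe sets. Of the 4 higher, 3 were among the 6 genes of the blood and endothelium list. The 2 lower were among the 8 of the endoderm list. The part of any such cells in the members' values was not tested.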

How the data were processed

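Endoderm of 8 explant samples was measured on 1 Affymetrix array each. Per the submitters' processing notes and the table's header, the authors used RMA, and the deposited intensity values are on the linear scale. Both deposited tables hold the same values (124888 of 124888 cells identical). The precision is limited by 4 arrays per condition. Values were turned to log2. Of 15611 probe sets, 120 controls were left out of the test. The test was limma 3.58.1 in R 4.3.3 (lmFit and eBayes, condition plus set number), two-sided, with Benjamini-Hochberg adjustment, and was tested on simulated data. The header row calls the numbers 1 to 4 biological replicates. The labels number the sets alike in both conditions, and the deviations of same-numbered arrays correlated at 0.84, 0.85, 0.69 and 0.32, so the sets were taken as pairs. Nothing further says that samples came from separate animals. The p-values and intervals therefore rest only on the spread within these sets. In eBayes the variance of each probe set is drawn toward that of all probe sets. An interval or p thus does not follow from the SD of its 4 differences alone. In the fit without the block they rest on the spread between these samples.

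Names were matched without case, suffix -A or -B or leading x, and nkx2.5 was read as nkx2-5. A probe set named only Mef2 was left out. Most of these genes have an L and an S copy in this species, and the files name neither. Some names carry a suffix: tbx5-A and tbx5-B, and hand2-b for the first and hand2-A for the second hand2 probe set. Which copy each measures was not settled. A fold against a value not above background is given with that value set to the 95th percentile of its array's negative controls. Such folds do not correct for background that differs between arrays. A list gene is given by its brightest probe set. Named were all members, called list genes, the 3 brightest list genes above background on all 8 arrays, and the 2 named probe sets most like each member above background on all 8 by Pearson r. A few genes that the rule names are not reported here. Genes named for being at background, and sox17a, sox17b, foxc2 and twist1, were picked with their values in view. The members and lists were chosen with earlier results of these data known. Alternatives were other normalizations and centrings, other variance models, the fit without the block, a filter on dim probe sets and leaving out each set.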

Additional observations from a re-analysis of the deposited data

Results flagged for a closer look

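The first mef2a probe set had 1 array far from the other 3 of its group. The array of set 2 alone read 40.1 (5.33 on the log2 scale), below 53.6 to 56.8 in the other sets alone. Its gap to the nearest array was 0.834 of the group's range, just past Dixon's 95% critical value for 4 samples. Chance flags about 1 in 20 groups, and 30 were tested.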

How the results depend on the processing

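No member probe set was called under any alternative run; the lowest adjusted p of a member (limma) ran from 0.122 without set 4 to 1.00 without the block. The counts of all probe sets called moved more. From 40 higher and 20 lower they went to 15 and 10 with quantile normalization again, to 13 and 8 with cyclic loess, to 0 and 1 with arrays centred on the negative controls, and to 0 and 0 without the replicate block. They were 16 and 10 with dim probe sets left out, and 62 and 44 at an adjusted p under 0.1. Leaving out 1 set gave 0 to 168 higher and 0 to 107 lower, with the highest counts without set 4; the cause was not tested. Of 172 recomputed member differences 165 kept their direction and call. The other 7 changed sign when 1 set was left out, and none of them was called. Over the sets left out, the first nkx2-5 probe set ran from -0.0921 to 0.454, the first nkx2-3 from -0.0604 to 0.204, the second nkx2-3 from -0.0373 to 0.374, the tbx5-B probe set from -0.0417 to 0.256, the last tbx5-A from -0.0746 to 0.0585, hand1 from -0.132 to 0.0767 and the first hand2 from -0.0643 to 0.193. Set 4 decided 5 of these and set 1 those of hand1 and tbx5-A. With the highest negative control as background 4 members passed on all 8 arrays in place of 5, and 7 passed the 95th percentile on at least 4 arrays. Signals near the negative controls limit tbx5, tbx20, mef2a and hand1.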

Other observations

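Both nkx2-5 probe sets were most like sox3, a factor of neural precursors, over the 8 arrays (r 0.98 each, the highest of 3745 searched). This was a description chosen after the values were seen, since nkx2-5 was above background on 7 arrays and fell outside the rule. The log2 differences of sox3 in sets 1 to 4 were -0.29, -1.13, 0.20 and 2.16, so that it too was lower with mesoderm in set 2 and highest in set 4. Sox3 was above background on 6 of 8 arrays, so these differences and the r hold values at background.

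Other genes had their widest difference in set 4. The endoderm gene sox17a differed by -1.50, beside -0.33 to -0.10, and gata4 by -1.14, beside 0.27 to 0.37. Sox17b differed by -1.06, beside 0.10 to 0.52. These genes were chosen after their values were seen.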
